A study of Homo sapiens with 8 samples.

Results

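TPI1, GAPDH, PGK1, PGAM1, ENO1, ENO2, PKM and LDHA encode the enzymes that carry triose phosphates to pyruvate and on to lactate, and all 8 had a HIF-1β peak near their transcription start in at least 7 of 8 libraries from hypoxic cancer cells. The 8 genes were taken by name, with earlier results of these data known, from 20136 annotated protein-coding genes. Peaks were assigned to a gene when they overlapped its body, extended by 25 kb on each side, on GRCh37 (hg19). Of the 18645 peaks in the 8 lists, 79 lay in these windows and 64 of those lay within 2 kb of the gene's own start. The lists came from chromatin immunoprecipitation and sequencing (ChIP-seq) of HIF-1β with the antibody Novus NB100-110, in 4 established human cancer lines with 2 replicates of each. PC-3 is a prostate cancer line, T47D a breast cancer line, A549 a lung cancer line and HCT-116 a colorectal cancer line. Every library came from cells kept at 0.5% oxygen for 16 hours, and no normoxic cells or input library were analysed here, so the values show where peaks were called in hypoxia and not whether hypoxia changed them. The labels do not say whether replicates were separate cultures, and differences between them may be technical.

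Glycolysis splits glucose into triose phosphates, and its later steps oxidise these to pyruvate and return ATP to the cell. When oxygen is scarce, lactate dehydrogenase reduces pyruvate to lactate and regenerates the NAD+ that the GAPDH step consumes. HIF is a dimer of an oxygen-labile α subunit and the stable β subunit, and it binds the hypoxia response element, whose core is RCGTG (R being A or G). Glycolytic enzymes are among the best known genes that HIF activates.

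A library held between 1042 and 3790 peaks. Each peak carries a score without a unit. Its lowest value lay close to 50 in every list, and scores piled up at 3100, so that ties occur at the top. No reads were analysed here and the depth is unknown. Scores were compared between libraries only by rank within a list, apart from the ratio of the PKM peaks given below. The rank share below is the percentage of a library's peaks that scored higher than the gene's best peak, so a small share is a high rank. Where peaks of both replicates shared 1 bp or more, they were joined into a site of that line. Distances are from the transcription start of the gene, and negative values lie upstream of it.

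The stretches of promoter shown here lie inside the interval shared by all peaks at that gene, and each holds at least 1 copy of RCGTG. They are not always the densest group of copies there. At PKM, the copies 1074 and 1102 bp downstream of the start lie closer together than the printed pair. The TPI1 stretch leaves out a copy at 557 bp. Capitals mark ACGTG or GCGTG on the printed strand, or CACGT where the copy lies on the other strand. CACGTG reads the same on both strands and counts as a copy on each. Sequences are from GRCh37, 5′ to 3′ on the strand of the gene. Those of PGAM1 and ENO2 overlap an exon of another annotated transcript, of the neighbouring gene RRP12 and of ENO2 itself, and were kept short.
TPI1, chr12:6977181-6977225, plus strand, intron 1: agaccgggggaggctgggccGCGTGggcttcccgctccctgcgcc
PGK1, chrX:77359514-77359586, plus strand, upstream of the start: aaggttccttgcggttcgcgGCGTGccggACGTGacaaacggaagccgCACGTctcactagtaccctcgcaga
PGAM1, chr10:99185762-99185790, plus strand, upstream of the start: cgccctccGCGTGcttACGTGcgctccgt
ENO1, chr1:8938412-8938555, minus strand, intron 1: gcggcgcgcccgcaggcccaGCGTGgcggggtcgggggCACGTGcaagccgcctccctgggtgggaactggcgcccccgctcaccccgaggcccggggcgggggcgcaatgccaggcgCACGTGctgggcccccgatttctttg
ENO2, chr12:7023614-7023642, plus strand, upstream of the start: acccgcgctcgtACGTGcgcctccgccgg
PKM promoter peak, chr15:72522812-72522890, minus strand, intron 1: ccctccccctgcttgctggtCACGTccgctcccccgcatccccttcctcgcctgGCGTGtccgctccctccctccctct
PKM intron 1 peak, chr15:72519197-72519241, minus strand, intron 1: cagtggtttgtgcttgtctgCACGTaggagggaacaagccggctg
LDHA, chr11:18415905-18416061, plus strand, upstream of the start: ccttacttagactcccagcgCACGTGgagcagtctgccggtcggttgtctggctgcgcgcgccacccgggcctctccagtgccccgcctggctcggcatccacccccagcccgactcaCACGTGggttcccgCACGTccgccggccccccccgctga

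The number of motif copies differed widely between the genes. In the interval common to all their promoter peaks, ENO1 had 18 copies in 1234 bp, with CACGTG at 5 places, and ENO2 had 1 copy in 601 bp. GAPDH had 11 copies in 2249 bp, PKM 9 in 1731 bp, LDHA 9 in 1201 bp and PGK1 8 in 801 bp. PGAM1, with 3 copies in 999 bp, and TPI1, with 2 in 1010 bp, were nearer to ENO2. In the common interval, the gene with the most copies also had the smallest mean rank share described below. ENO2 had the fewest copies there and the lowest ranks, but PGAM1 ranked close to LDHA with 3 copies beside 9. These counts depend on the interval. Over the stretch covered by any of the peaks, ENO1 had 21 copies, PGAM1 12, LDHA 11, ENO2 4 and TPI1 2. TPI1 then had fewer copies than ENO2, and PGAM1 and LDHA were close. The 8 genes were read in the same libraries, and copies were not tested against rank.

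The share of sites with the motif at their centre is given beside that of all sites of the line. The central 200 bp of a site contained RCGTG in 73.8% of all sites in PC-3, 64.3% in T47D, 71.2% in A549 and 73% in HCT-116. Among the promoter sites of the 8 genes the count was 5 of 7 in PC-3, 7 of 8 in T47D, 5 of 8 in A549 and 6 of 8 in HCT-116, with TPI1, GAPDH or PGAM1 the genes without a copy. When the central 500 bp were searched instead, every promoter site of the 8 genes held a copy, as did 86.3% to 92.8% of all sites. Counted over the whole site, the median density at the promoter sites of the 8 genes was between 5.24 and 6.07 copies per kb in the 4 lines. That of all sites, promoter and distal together, was between 2.61 and 3.76. The sets were not matched for place or GC content, so the difference is not a test of motif enrichment at these genes. In the promoters given by RefSeq on GRCh38.p14, from 250 bp before to 50 bp after each start, 48.4% of 35116 entries held the motif, and 8 of the 10 entries of these genes did.

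A promoter site, within 2 kb of the start, was found at 7 of the 8 genes in PC-3 and at all 8 in T47D, A549 and HCT-116. Of all protein-coding genes, 1.97% had such a site in PC-3, 6.65% in T47D, 1.47% in A549 and 5.76% in HCT-116. In all 4 lines together it was 7 of the 8 genes and 0.829% of all genes, and ENO2 was the exception. In the wider window of 25 kb around the body the counts were again 7, 8, 8 and 8, beside 6.74%, 15.3%, 5.64% and 13.7% of all genes, and 7 of the 8 genes had a site there in all 4 lines, beside 2.33%. The wider window therefore brought in no gene that lacked a promoter site. The windows of TPI1 and ENO2 overlap by 6369 bp, but no peak lay in the overlap of both.

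At the promoter, a limit of 5% set 5 genes apart from PKM, TPI1 and ENO2. By the best peak in the window, PKM lay nearer to these 5 genes, with a mean rank share of 3.23% beside 1.54% for PGK1 and 15.3% for TPI1. GAPDH, PGK1, PGAM1, ENO1 and LDHA had a promoter peak among the top 5% of both lists in every line, a limit chosen after the ranks were seen. That made 5 of the 8 genes in PC-3, A549 and HCT-116, and 6 in T47D, where PKM joined them. Of all genes, 0.154% met this limit in PC-3, 0.377% in T47D, 0.134% in A549 and 0.298% in HCT-116. In all 4 lines it was 0.0894%, which is 18 genes, 5 of them from this set.

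**Figure D1:**
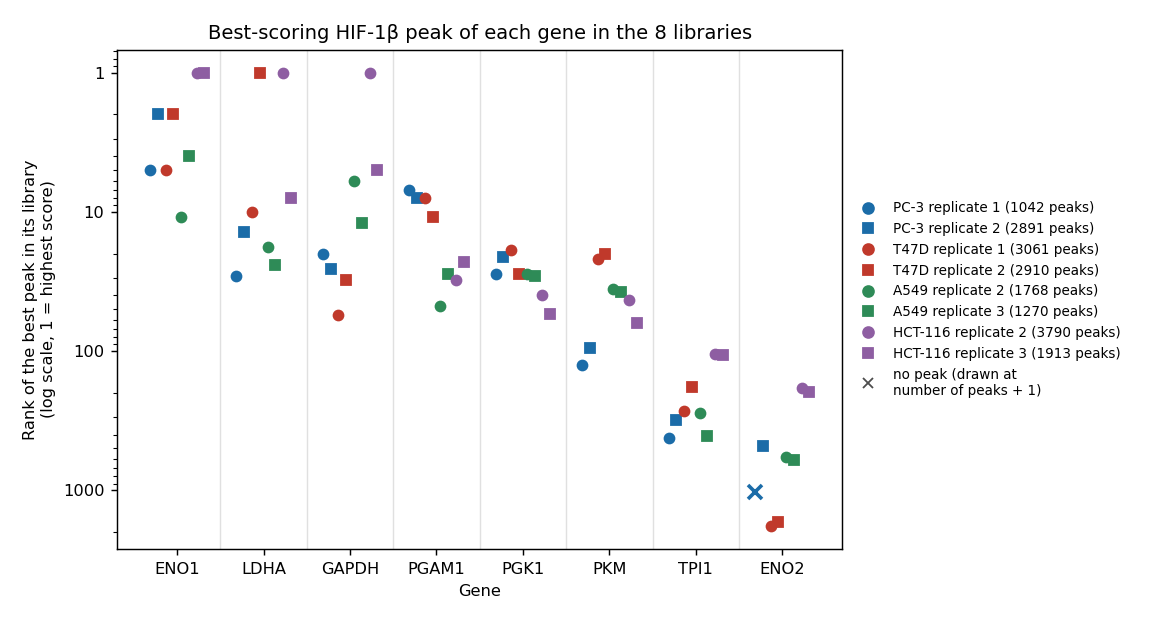
Rank of the best peak within 25 kb of each gene body in the 8 libraries, on a log axis with rank 1 at the top; circles are the first and squares the second replicate of a line, and the cross marks the library without a peak at ENO2. ENO1 lies between ranks 1 and 11 in every library, GAPDH, LDHA, PGAM1 and PGK1 lie between 1 and 55, and TPI1 and ENO2 have rank 105 or lower.

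ENO1 encodes α-enolase, the widely expressed enzyme that forms phosphoenolpyruvate, and it had the smallest mean rank share of the 8. Its peak ranked 5 and 2 in PC-3 replicates 1 and 2, 5 and 2 in T47D replicates 1 and 2, 11 and 4 in A549 replicates 2 and 3, and 1 in both HCT-116 replicates. GAPDH ranked above it in A549 replicate 2 and LDHA in T47D replicate 2, and both tied with it in HCT-116 replicate 2. The score of ENO1 was 3100, the value at which scores pile up, in 4 of these libraries, so the order among the highest peaks there is not resolved. The peaks were centred between -324 and -51 bp and were 1234 to 2593 bp wide. The 5-copy stretch printed above lies 190 to 333 bp downstream of the start.

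ENO2 encodes γ-enolase, which catalyses the same reaction and is best known from neurons, and its peak was the weakest of the 8. PC-3 replicate 1 had no peak and replicate 2 had one of score 211.31 at rank 483, so PC-3 had no site. In T47D both replicates had a weak peak, with scores of 73.32 and 77.64 at ranks 1831 and 1701. The ranks were 583 and 611 in A549 replicates 2 and 3, and 186 and 199 in the HCT-116 replicates, where the scores were 649.56 and 344.88. Both HCT-116 replicates thus ranked above every other library, and the pairs of A549, T47D and HCT-116 did not overlap each other. The single copy of the motif common to the 7 peaks begins at -118 bp, close to the median peak centre at -100 bp.

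GAPDH encodes the dehydrogenase of glyceraldehyde 3-phosphate, the step that reduces NAD+. Its peak ranked 20 and 26 in PC-3, 55 and 31 in T47D, 6 and 12 in A549, and 1 and 5 in HCT-116, in replicate order. By rank alone, all 4 libraries of A549 and HCT-116 lay above all 4 of PC-3 and T47D. By rank share, which takes in the length of the list, PC-3 replicate 2 (0.865%) and A549 replicate 3 (0.866%) were level, so the lines did not separate. The peak was also wide, at 2340 to 4075 bp, and between 0.113% and 5.53% of the peaks of the same library were wider. Its centre lay between -692 and -243 bp, with a median of -520 bp, whereas the median centres of PGK1, ENO1, ENO2, LDHA and PGAM1 lay between -188 and -63 bp.

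PGAM1 encodes the phosphoglycerate mutase of most tissues and showed the opposite order of lines. Its peak ranked 7 and 8 in PC-3 and 8 and 11 in T47D, but 48 and 28 in A549 and 31 and 23 in HCT-116. The 4 libraries of PC-3 and T47D ranked above those of A549 and HCT-116 without overlap, also by rank share, where they reached at most 0.576% and the others at least 0.792%. PC-3 and T47D are the lines whose replicates are numbered 1 and 2, and A549 and HCT-116 those numbered 2 and 3, and the part of this numbering in the result was not tested. PGAM1 therefore ranked above GAPDH in 4 libraries and below it in the other 4, and the order of these genes by their mean rank share (0.855% for GAPDH and 1.01% for PGAM1) is not resolved. The centre of the peak lay between -132 and 27 bp.

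PGK1 encodes phosphoglycerate kinase, which makes the first ATP of the pathway, and its peak stayed between ranks 19 and 54. It ranked 28 and 21 in PC-3, 19 and 28 in T47D, 28 and 29 in A549, and 40 and 54 in HCT-116. HCT-116 had the lowest ranks, but by rank share its libraries, at 1.03% and 2.77%, spanned those of A549, at 1.53% and 2.2%. The peaks were 970 to 1668 bp wide and centred between -325 and -59 bp.

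LDHA encodes the lactate dehydrogenase subunit that favours the formation of lactate. Its peak ranked 29 and 14 in PC-3, 10 and 1 in T47D, 18 and 24 in A549, and 1 and 8 in HCT-116. The T47D and HCT-116 libraries lay between ranks 1 and 10, and those of PC-3 and A549 between 14 and 29, without overlap. The 5-copy stretch printed above ends at -49 bp, and the peak centres lay between -189 and 46 bp. LDHA and GAPDH could not be ordered, with LDHA higher in 3 libraries, GAPDH in 4 and a tie in 1.

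TPI1 encodes triosephosphate isomerase, which interconverts both triose phosphates, and its promoter peak was of moderate rank. It ranked 421 and 316 in PC-3, 270 and 181 in T47D, 282 and 408 in A549, and 105 and 107 in HCT-116. Both HCT-116 libraries ranked above all others, also by rank share. The centre of the peak lay 324 to 585 bp downstream of the start in every library, in intron 1, where the only copies of the motif begin 506 and 557 bp from the start.

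**Figure D2:**
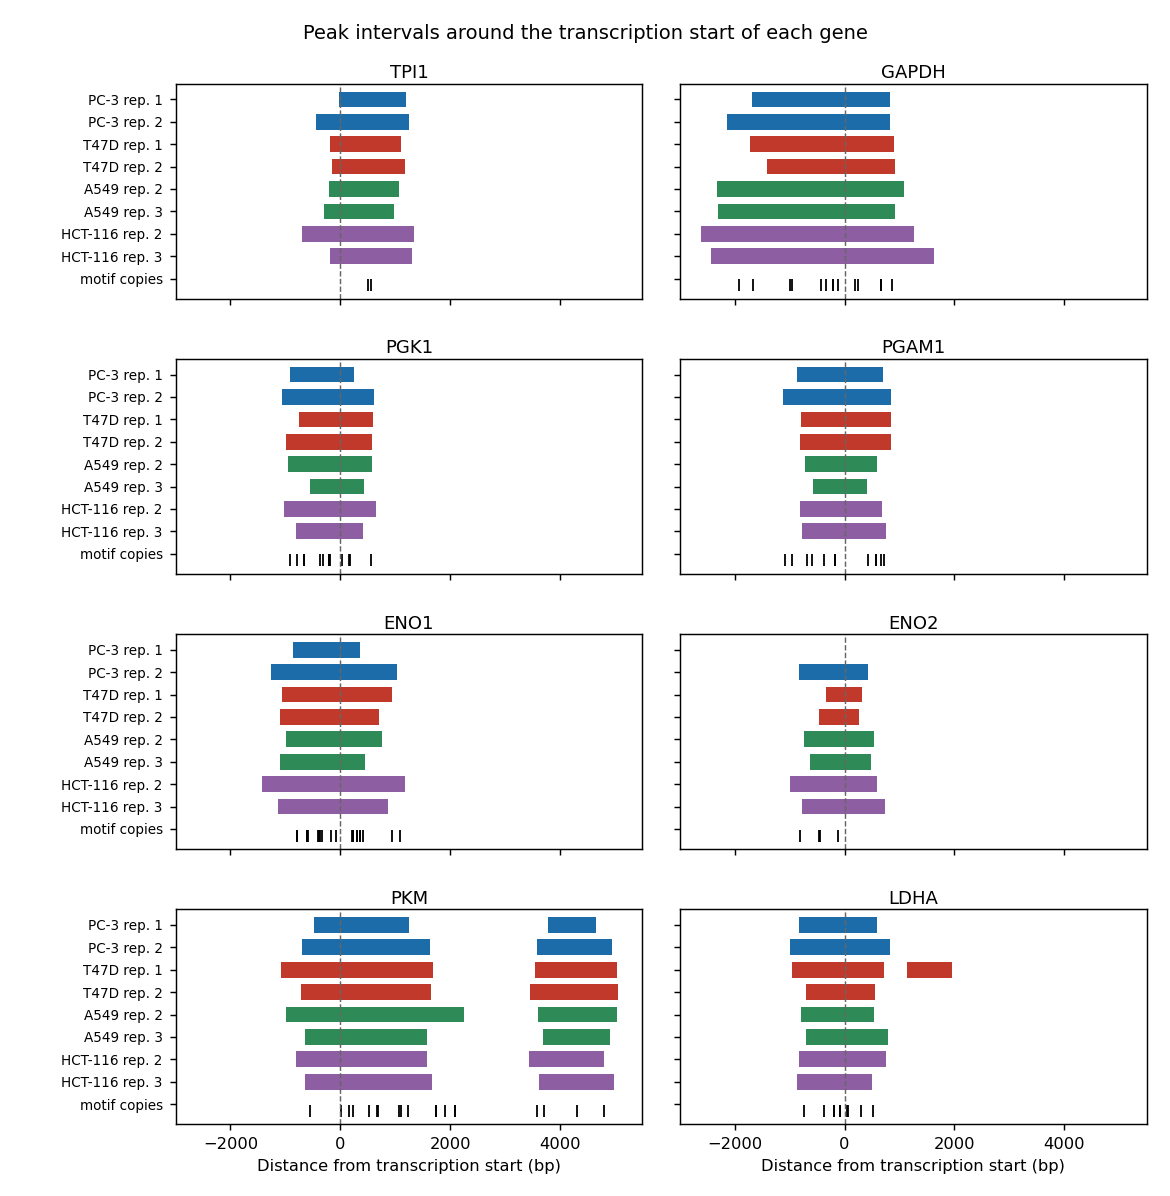
Peak intervals of each library relative to the transcription start (dashed line, 0 bp; positive values are downstream on the strand of the gene), with motif copies as ticks in the lowest row; bars are coloured by line, and peaks beyond the axis are not drawn. The PKM panel shows 2 groups of peaks, the second centred 4123 to 4320 bp from the start, and the T47D replicate 1 row of LDHA shows a second peak without a counterpart in replicate 2.

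PKM encodes the pyruvate kinase that splicing turns into the M1 and M2 forms, and it was the only gene of the 8 with a second site inside its body in all 4 lines. The promoter peak was centred 310 to 633 bp downstream of the start, and the second peak 4123 to 4320 bp downstream, both in intron 1. The second peak scored higher than the promoter peak in 8 of 8 libraries. Its ranks were 126 and 95 in PC-3, 22 and 20 in T47D, 36 and 38 in A549, and 43 and 63 in HCT-116. The promoter peak ranked 404 and 420 in PC-3, 27 and 46 in T47D, 184 and 170 in A549, and 106 and 110 in HCT-116. At both peaks the T47D libraries ranked highest and the PC-3 libraries lowest, and HCT-116 lay above A549 at the promoter. At the second peak the shares of HCT-116, 1.11% and 3.24%, overlapped those of A549, 1.98% and 2.91%. By share, PC-3 replicate 2 (3.25%) was level there with HCT-116 replicate 3, so PC-3 did not separate from HCT-116 at that peak.

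The ratio between the scores of both PKM peaks was smaller in T47D and HCT-116 than in PC-3 and A549. The score of the second peak over that of the promoter peak was 2.46 and 3.25 in PC-3, 1.17 and 1.48 in T47D, 2.65 and 2.77 in A549, and 1.85 and 1.54 in HCT-116. The ratio compares scores of unknown unit within a library and is not a ratio of occupancy. Whether it has a common scale between libraries was not tested. T47D had the smallest ratios and PC-3 and A549 the largest, and the ranges of T47D and HCT-116 did not overlap those of PC-3 and A549. T47D and HCT-116 also had a promoter site at more of all genes, 6.65% and 5.76% beside 1.97% in PC-3 and 1.47% in A549. Whether the ratio at PKM is related to this was not tested. The promoter peak was the wider of the pair, at 1731 to 3242 bp, and the stretch common to the second peak in all libraries held 1 copy of the motif in 884 bp, the copy printed above, with a GC content of 46.6% beside 69.5% at the promoter.

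**Figure D3:**
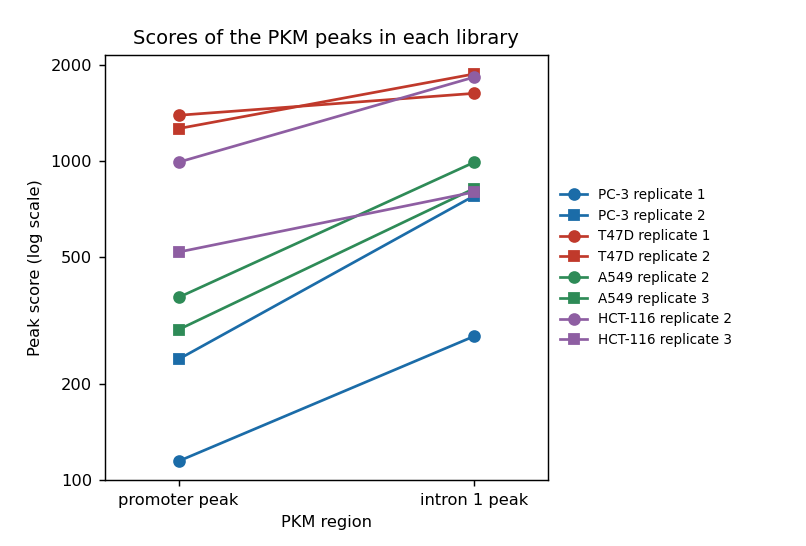
Scores of the promoter peak and the second intron 1 peak of PKM in each of the 8 libraries, on a log axis; lines join the peaks of a library. Every line rises to the right, least in T47D replicate 1 (1.17 times) and most in PC-3 replicate 2 (3.25 times).

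Of the 15 peaks that lay elsewhere in the windows, 8 were those of the second PKM site. In A549, both replicates had a peak about 10 kb upstream of LDHA (chr11:18404944-18406521), with scores of 134.68 and 93.86 at ranks 623 and 648. No other line had a peak there, and the 991 bp common to both A549 peaks held no copy of the motif. In HCT-116, both replicates had a peak in the TPI1 window at chr12:6960450-6962453, with scores of 134.75 and 68.17, which overlaps the start of USP5 and is centred at -15244 bp. PC-3 replicate 2 alone had a peak at the same place, with a score of 69. The other distal peaks seen in a single replicate were one at the start of TAF9B in the PGK1 window of HCT-116 replicate 3, with a score of 74.78, and one 23370 bp downstream of the ENO2 start in HCT-116 replicate 2, with a score of 54.93. T47D replicate 1 alone also had a second peak within 2 kb of the LDHA start, in intron 1, with a score of 57.86. None of these peaks beside the second PKM site scored above 134.75.

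Ordered by the mean rank share over 8 libraries (± SD), the genes ran from ENO1 (0.173% ± 0.208) through LDHA (0.821% ± 0.96), GAPDH (0.855% ± 0.684), PGAM1 (1.01% ± 0.915), PGK1 (1.54% ± 0.872) and PKM (3.23% ± 3.71) to TPI1 (15.3% ± 13.6) and ENO2 (41.4% ± 31.8, with PC-3 replicate 1 set at 100%). PKM enters this order with its second peak. PKM ranked above TPI1 and TPI1 above ENO2 in 8 of 8 libraries. By promoter peaks alone, TPI1 ranked above PKM in PC-3 replicate 2 (316 and 420) and in HCT-116 replicates 2 (105 and 106) and 3 (107 and 110). In the other libraries the PKM promoter peak ranked higher. ENO1 ranked above LDHA in 6 libraries with a tie in 1, PGAM1 above PGK1 in 7, and PGK1 above PKM in 7. LDHA, GAPDH and PGAM1 did not keep an order among the libraries.

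The median of the 8 shares, with replicates averaged, was 1.6% in PC-3, 0.714% in T47D, 2.13% in A549 and 1.44% in HCT-116. The replicates of PC-3 had medians of 2.64% and 0.778%, and those of HCT-116 1.96% for replicate 3 and 0.91% for replicate 2. The replicates of T47D had medians of 0.637% and 0.79% and those of A549 1.75% and 2.17%. The spread within PC-3 spanned the medians of A549 and HCT-116, and the order of the lines is not resolved. Lists of different length weigh on this measure, since the same rank is a larger share of the 1042 peaks of PC-3 replicate 1 than of the 2891 of replicate 2.

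Whether replicates of a line had more similar shares than libraries of different lines was tested per gene over the 105 ways to divide the 8 libraries into pairs, which allow a p of 0.0095 at the smallest. The mean difference between replicates at PGAM1 was 0.335 percentage points, beside 1.04 over all divisions (exact permutation test, one-sided, p = 0.029). This was the only gene of 8 under 0.05 before any adjustment for 8 tests, and the other p-values were between 0.1 for PKM and 0.6 for PGK1 (exact permutation tests). On the log10 scale of the rank itself, 4 genes were under 0.05. GAPDH and PKM were at 0.0095, ENO2 at 0.029, TPI1 at 0.048 and PGAM1 at 0.086 (exact permutation tests, one-sided). That scale does not divide the rank by the length of the list, but a rank can still depend on how many peaks were called. At TPI1, ranks 421 and 316 in PC-3 replicates 1 and 2 were shares of 40.3% and 10.9%. At ENO2 the length enters directly, since PC-3 replicate 1, without a peak, was given the rank after the last peak of its list. Which genes were under 0.05 thus depended on the scale, and the test asks only whether replicates were alike, not which lines ranked higher.

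The earlier steps of the pathway were bound at the promoter in part. Of 11 genes of upper glycolysis, 6 had a promoter site in PC-3, T47D and HCT-116 and 4 in A549. Per line, 1.47% to 6.65% of all genes had such a site. HK2, the hexokinase of many tumours, PFKL, the liver-type phosphofructokinase, and the aldolases ALDOA and ALDOC had it in all 4 lines. HK1 and PFKP lacked it in A549, and HK3 and PFKM had no site in any line. ALDOA, whose product feeds TPI1 and GAPDH, ranked 21 and 16 in PC-3, 9 and 9 in T47D, 21 and 16 in A549, and 26 and 39 in HCT-116, within the top 5% of every list.

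GPI, the isomerase of glucose 6-phosphate, shows how the count rests on the start chosen. Its site ranked 1 or 2 in all 8 libraries but was centred between -5819 and -5702 bp from its canonical start, and so fell outside the promoter. The same site lay within 103 bp of the start of another GPI transcript in every line.

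**Figure D4:**
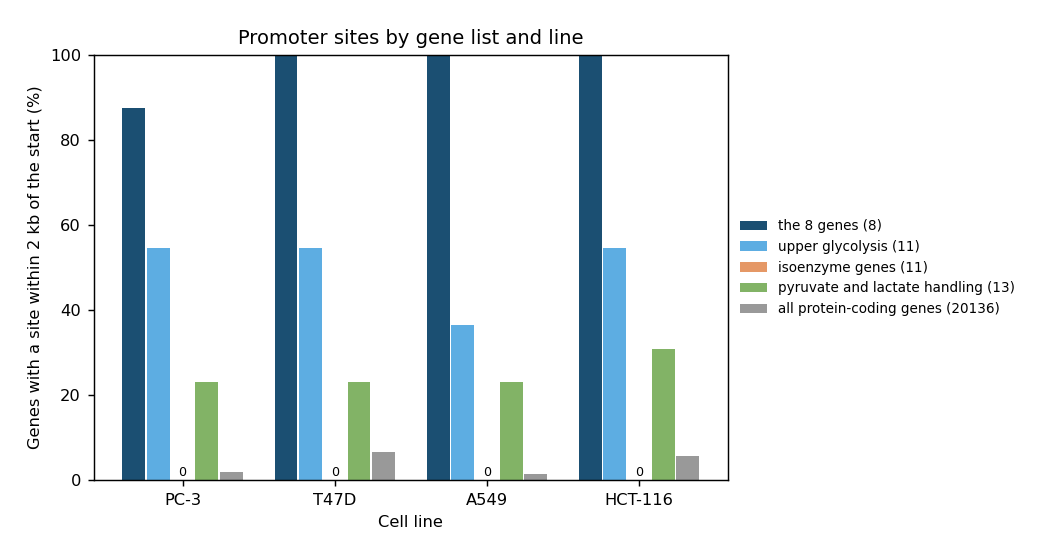
Share of genes with a site within 2 kb of the canonical transcription start in each line, for the 8 genes, for 3 lists of related genes and for all protein-coding genes, with the number of genes in parentheses. The 8 genes stand at 87.5% in PC-3 and 100% in the other lines, upper glycolysis at 36.4% to 54.5%, and the isoenzyme genes at 0% throughout.

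The isoenzymes of the same reactions had no promoter site. Of all genes, 1.47% to 6.65% per line had one, so that a count of 0 among 11 is near that background. None of the 11 (GAPDHS, PGK2, PGAM2, PGAM4, ENO3, ENO4, PKLR, LDHB, LDHC, LDHAL6A and LDHAL6B) had a peak of both replicates within 2 kb of its start in any line. LDHB, which encodes the heart-type lactate dehydrogenase subunit, had no site in its window in any line and no promoter peak in any library. ENO3, the muscle enolase, had a promoter peak in a single replicate of 3 lines, with scores of 125.47 in PC-3 replicate 2, 79.46 in T47D replicate 1 and 53.36 in HCT-116 replicate 2. LDHC, the testis subunit, had a site in its window in all 4 lines, but this was the LDHA promoter, at -17875 to -17755 bp from the LDHC start. The site in the PKLR window of all 4 lines had CLK2 as the gene with the nearest start, and its scores did not exceed 292.45. Many of these genes are known as tissue-restricted, and no expression was measured here.

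Genes that act on pyruvate or lactate were bound in part. Of 13 genes, 3 had a promoter site in PC-3, T47D and A549 and 4 in HCT-116, beside 1.47% to 6.65% of all genes per line. SLC16A3, the lactate exporter MCT4, and PDK1 and PDK3, kinases that inactivate pyruvate dehydrogenase, had it in all 4 lines. SLC16A1, the transporter MCT1, had it in HCT-116, with scores of 140.29 and 59.35, and in no other line. The subunits of pyruvate dehydrogenase itself (PDHA1, PDHB and DLAT), PDK2, PDK4, SLC16A7, MPC1 and MPC2 had no site of both replicates in any line, nor did BSG at its promoter.

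The genes with the most similar profile were sought among the 168 with a promoter peak in all 8 libraries, by the mean absolute difference in rank share from the median of the 7 genes bound in every library. PNRC1 was nearest at 0.423 percentage points, followed by ALDOA at 0.517, SLC16A3 at 0.534, KDM3A at 0.621 and PDK1 at 0.703. PNRC1 encodes a nuclear receptor coactivator and KDM3A a histone demethylase. A profile near 0 in every library is close to any other of that kind, so the measure mainly finds peaks that rank high throughout.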

How the data were processed

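HIF-1β ChIP-seq was performed by the authors in 4 lines with 2 replicates each. According to the submitters' processing notes, the work used Trim Galore 0.3.3, BWA 0.7.5a-r405, SAMtools 0.1.19, Picard 1.106, bedtools 2.17.0 and MACS on GRCh37 (hg19). The study also names T-PIC, whose part cannot be seen in the lists. Peaks were called per replicate, and the deposited lists give each peak's interval and score, without a header. Other columns of sample values left unused numbered 0.

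Gene models were those of GENCODE release 44 lifted to GRCh37. The body and start were those of the canonical transcript (281 genes without one were taken whole), because the annotated span of PGK1 reaches far upstream. Sites, ranks, motif counts and exact permutation tests were computed with Python 3.11.15, NumPy 2.4.6 and pysam 0.24.0, and overlaps were tested on simulated data against bedtools 2.31.1. The 8 genes and the 3 lists, from which other named genes come, were chosen with earlier results of these data known. Also named are genes whose start is nearest to a site in a window and the 5 with the most similar ranks. The alternatives were other windows, promoter widths, overlaps and motif widths, peaks in the upper 50% of scores, sites with a peak in 1 replicate or more, log10 ranks, and replicates or lines left out. Use of the whole annotated gene was added after the data were seen. A few items of these lists and sequences are not reported here.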

Additional observations from a re-analysis of the deposited data

How the results depend on the processing

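Of 170 alternative values, 159 were labelled as kept and 11 were not. Kept meant the same direction and side of the threshold or, for counts, within 1.5 times the main count. For median rank shares the label did not follow the size of the change. With 1 replicate left out, PC-3 went from 1.6% to 0.778% or 2.64% and HCT-116 from 1.44% to 0.91% or 1.96%, all labelled as kept. Counts of genes with a site moved by at most 1 gene. PC-3 had 8 in place of 7, in the window and at the promoter, with a peak of either replicate or without replicate 1, and in the window with 50 kb. T47D had 7 in place of 8 in both with the higher-scoring 50% of each list. A549 and HCT-116 had 8 throughout. The share of all genes with a site is given for the main settings only, so these counts have no background beside them. The median rank share in T47D was 0.978% with promoter peaks only, beside 0.714%, since this drops the second PKM peak. Without either replicate of A549 its median ranged from 1.75% to 2.17%. On log10 ranks, 2 genes (GAPDH and PKM) had replicates closer than libraries of different lines after the adjustment over 8 genes, beside 0 on rank shares. On rank shares, the number of genes for which no other division gave as small a difference was 0 with all 4 lines. It was 5 without PC-3, 1 without T47D, 2 without A549 and 1 without HCT-116. With 3 lines there are 15 divisions in place of 105, so these counts are not on the same footing. Promoter sites with a motif copy in A549 numbered 8 with the central 500 bp or the whole site, beside 5 with the central 200 bp, since longer sequence was searched. A peak of either replicate could not alter the rank shares, which are computed per library. No paired analysis was possible because the planned test is over all 4 lines, which have only number 2 in common, although A549 and HCT-116 share numbers 2 and 3 and PC-3 and T47D share 1 and 2. Depth is unknown and no control library was analysed here, so a missing peak, as for ENO2 in PC-3 replicate 1, does not show that binding was absent.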
